A study of Homo sapiens with 9 samples.

Results

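The genes described here are 10 classical transcriptional targets of NF-kB: NFKBIA, NFKB1, NFKB2, RELB, TNFAIP3, BIRC3, CXCL8, CXCL1, CXCL2 and CCL20. They were taken by symbol, as 10 of the 58684 genes of the deposited count table. The rule uses no measured value, but it was written with earlier results of these data known. Polyadenylated RNA was sequenced from Huh7, a long-established line of human hepatocellular carcinoma cells, in 3 groups of 3 libraries. Every group had been infected with a pLKO.1 lentivirus coding for a short hairpin RNA and selected with puromycin for stable expression. The hairpin was a control in shControl, targeted IMPDH1 in shIMPDH1 and targeted IMPDH2 in shIMPDH2, where these genes encode the isozymes of inosine monophosphate dehydrogenase (IMPDH), which catalyses the rate-limiting step towards GTP. No group was left uninfected and no inflammatory stimulus is named in the labels. The sources used here give neither the hairpin sequences nor whether a target had more than 1 hairpin. The series text calls the libraries of a group biological replicates but does not say how replicate cultures were separated. The p-values therefore measure only the spread among these 9 libraries, which may be technical. Libraries are named by their group and the replicate number in the labels.

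NF-kB is a family of dimeric transcription factors built from the subunits RELA, RELB, REL, NFKB1 and NFKB2. In resting cells the dimers are held in the cytoplasm by IkB proteins, and receptors for cytokines and microbial products act through adaptors, ubiquitin ligases and the IKK kinases to release them. The target genes include the pathway's own inhibitors and subunits, which return it to rest, and chemokines, which recruit leukocytes. In liver tumours the pathway is known from studies of inflammation, cell survival and the attraction of neutrophils and other leukocytes.

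The chemokines and the regulators of the pathway did not move together between the knockdowns. In shIMPDH2 the neutrophil chemokines CXCL8, CXCL1 and CXCL2 were higher than in shIMPDH1 by log2 fold changes of 1.17, 0.44 and 0.40, while the chemokine CCL20 was lower by 0.52 on the log2 scale. NFKBIA, NFKB1, NFKB2, TNFAIP3 and BIRC3 were lower in shIMPDH2 than in shIMPDH1 by 0.13 to 0.38 on the log2 scale, and RELB was higher by 0.16. Only CXCL8 differed by more than 1.5-fold among the 10 genes, in both comparisons that include shIMPDH2, where 6.74% (against shControl) and 8.03% (against shIMPDH1) of all tested genes were called at that size. All 10 genes passed the filter on low counts.

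A library held 44560837 to 58370328 counts, at which 3 counts are worth 0.0519 to 0.0674 CPM. CPM is the depth-normalised count, here with TMM scaling. Each hairpin lowered its target: IMPDH1 was at 62.7 CPM in shControl and 24.5 CPM in shIMPDH1, and IMPDH2 was at 228 CPM in shControl and 109.7 CPM in shIMPDH2. The other isozyme was higher than in shControl in each knockdown. IMPDH2 was at 274 CPM in shIMPDH1 (adjusted p = 3.49e-10) and IMPDH1 at 70.3 CPM in shIMPDH2 (adjusted p = 0.000486). All 10 of 10 hepatocyte and hepatoma markers were measured, with summed levels of 36193 to 38358 CPM in shControl, 41946 to 43298 CPM in shIMPDH1 and 43834 to 45011 CPM in shIMPDH2. Against shControl, 6 were called higher and 1 lower in shIMPDH1, and 7 higher and 3 lower in shIMPDH2. Between the knockdowns 4 were higher and 4 lower. The shares called were 70%, 100% and 80%, against 43.4%, 38.4% and 44.0% of all tested genes. Of the 12 immune markers, MS4A1 and FCGR3A were at 0 in every library, and PTPRC and CD3E reached at most 6 and 2 counts. The 5 that were tested moved between groups: in shIMPDH1 against shControl 1 was called higher (LYZ) and 3 lower, in shIMPDH2 against shControl 1 higher and 1 lower, and between the knockdowns 3 higher and 1 lower. CD3D, of the T cell receptor complex, was at 0.521, 0.0750 and 0.997 CPM in shControl, shIMPDH1 and shIMPDH2, CD14 at 4.59, 3.64 and 5.13 CPM and ITGAM at 0.575, 0.225 and 0.267 CPM. CD3D thus had the group order of CXCL1, at 2 to 6 counts a library in shIMPDH1. The list summed to 891 to 940.0 CPM in shControl, 1312 to 1350 CPM in shIMPDH1 and 866 to 905 CPM in shIMPDH2, nearly all of it LYZ. Of the 11 endothelial and stromal markers 7 were tested, KDR was at 0 and VWF reached at most 3 counts. In shIMPDH1 against shControl 1 was called higher and 3 lower, in shIMPDH2 against shControl 1 higher and 2 lower, and between the knockdowns 3 higher and 1 lower. PECAM1 was at 12.7, 5.75 and 7.16 CPM, COL1A1 at 4.94, 2.13 and 6.25 CPM, PDGFRB at 13.0, 8.37 and 11.6 CPM and COL1A2 at 70.6, 84.7 and 70.2 CPM in shControl, shIMPDH1 and shIMPDH2. The list summed to 104 to 107 CPM in shControl, 103 to 107 CPM in shIMPDH1 and 97.8 to 101 CPM in shIMPDH2. The part of these marker differences in the members' results was not tested. Among replicates, shControl 1 differed from the other controls by a mean chi-square of 5.80 and 6.99 a gene, where those differed from each other by 1.94, and shIMPDH2 1 differed by 3.83 and 3.93 from libraries that differed by 2.09. In bulk RNA, a smaller number of expressing cells cannot be told apart from less RNA per cell.

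To see how abundant the members were relative to each other, levels were divided by the exon length of each gene in GENCODE 29, which gives CPM per kilobase. In shControl the order was CCL20 at 172 CPM per kilobase (SD 5.60, n = 3), NFKBIA at 39.9, CXCL1 at 24.0, CXCL8 at 13.8, NFKB1 at 12.4, NFKB2 at 10.4, TNFAIP3 at 8.81, RELB at 5.54, CXCL2 at 3.06 and BIRC3 at 1.72. No neighbours in this order overlapped across the 3 control libraries. In shIMPDH1 CXCL8, at 12.7 CPM per kilobase, and NFKB1, at 13.1, overlapped. In shIMPDH2 CXCL8 reached 28.6 CPM per kilobase (SD 1.22) and overlapped with CXCL1 at 27.4 (SD 0.412), so the 2 chemokines that were clearly ordered in the control were no longer separable. The union of annotated exons was used as the length, and the isoforms used by Huh7 were not measured, so the order holds for that length only.

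**Figure D1:**
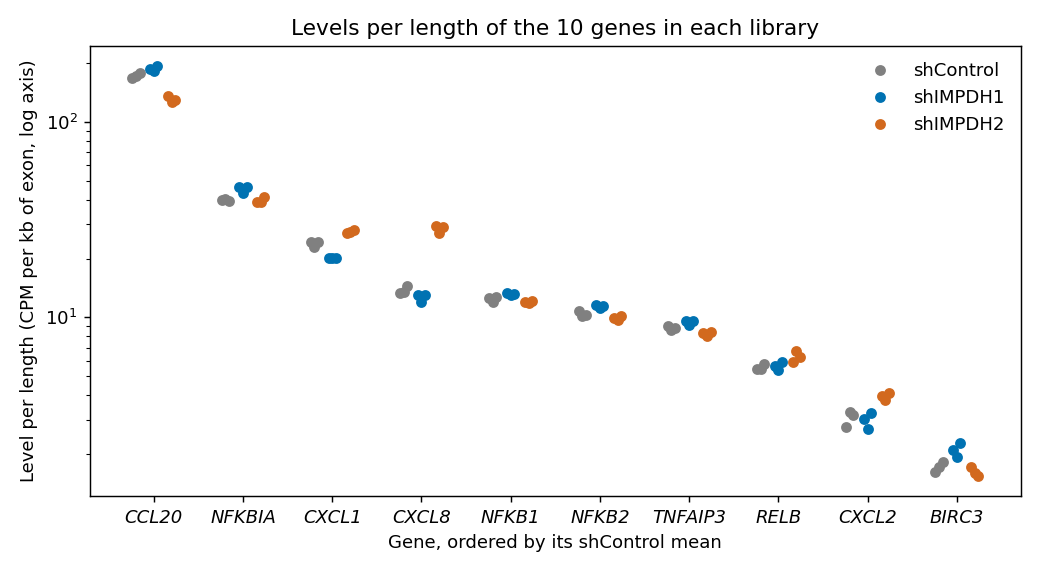
Level of each of the 10 genes per kilobase of exon, on a log axis in CPM per kilobase, with 1 point per library coloured by group and the genes ordered by their shControl mean. CCL20 was highest in every group, with means from 131 to 187 CPM per kilobase, and CXCL8 reached the level of CXCL1 in shIMPDH2.

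NFKBIA encodes IkB-alpha, the inhibitor that NF-kB itself induces to end a response. It lies on chromosome 14, positions 35401511 to 35404749, minus strand. Its promoter is printed with those of the chemokines because each holds the letters GGAANNNCC, a short form of the NF-kB recognition sequence, close to the start. The sequences are from RefSeq on GRCh38.p14, run 5′ to 3′ on the strand of the gene, and have the matched letters in capitals. Stretches covered by an annotated exon of the gene were left out, and for CXCL2, where an alternative first exon covers the region, 30 bases about the match are given. They are chr14:35404750-35404869 minus for NFKBIA, chr4:73740449-73740505 plus for CXCL8, chr4:73869273-73869392 plus for CXCL1, chr4:74099253-74099282 minus for CXCL2 and chr2:227813722-227813821 plus for CCL20.
NFKBIA: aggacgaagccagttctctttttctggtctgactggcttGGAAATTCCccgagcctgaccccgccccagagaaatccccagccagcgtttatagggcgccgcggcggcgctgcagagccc
CXCL8: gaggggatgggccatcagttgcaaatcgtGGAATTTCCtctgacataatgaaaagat
CXCL1: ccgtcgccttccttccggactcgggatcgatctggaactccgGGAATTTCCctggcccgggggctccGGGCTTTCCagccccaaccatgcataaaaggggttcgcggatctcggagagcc
CXCL2: tggagctccgGGAATTTCCctggcccggga
CCL20: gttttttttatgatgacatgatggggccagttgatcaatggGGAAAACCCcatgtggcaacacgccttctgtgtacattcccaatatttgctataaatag

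Searched on both strands, the letters GGAANNNCC were found in the window from 250 bases before to 50 bases after the start in 10 of the 12 promoters of the 9 members that the RefSeq table holds, with at least 1 for each gene and none in 1 of the promoters of NFKB1 and 1 of those of NFKB2. RELB is not in the table. The letters were found in 20.1% of all 35116 promoters of that length and in 22.4% of those of the tested genes. The start is that of the RefSeq promoter. For CXCL8 (73740569), CXCL2 (74099195) and CCL20 (227813842) it differs from the 5′ bound of the GENCODE gene given with the levels. Counted back from the RefSeq start, the match of the printed stretch nearest to its 5′ end lay at bases 81 to 73 in NFKBIA, 91 to 83 in CXCL8, 78 to 70 in CXCL1, 77 to 69 in CXCL2 and 79 to 71 in CCL20. NFKBIA had another at bases 242 to 234, and CXCL1 and CXCL2 each had another at bases 53 to 45. In the first-named matches CXCL8, CXCL1 and CXCL2 shared the letters GGAATTTCC, whereas CCL20 had GGAAAACCC. NFKB1, whose promoter is not printed, also had GGAATTTCC, at bases 48 to 40. Like CCL20, NFKB1 was lower in shIMPDH2 than in shIMPDH1 (log2 fold change -0.13). A relation of these letters to the direction of change was not tested. In the 30 bases about the match, CXCL1 and CXCL2 were identical at 28 positions, CXCL8 and CXCL1 at 17, and CXCL1 and CCL20 at 11. A match of letters is a description of the sequence, and binding was not measured.

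NFKBIA stood higher in shIMPDH1 than in either other group. It was at 94.2, 96.2 and 93.7 CPM in the 3 shControl libraries, 109.9, 102.5 and 110.5 CPM in shIMPDH1, and 91.9, 92.9 and 97.5 CPM in shIMPDH2. All shIMPDH1 libraries lay above all others, and the shIMPDH2 libraries overlapped with the control. The log2 fold change was 0.18 (SE 0.032, adjusted p = 2.76e-05) in shIMPDH1 against shControl, -0.01 (SE 0.032, adjusted p = 0.842) in shIMPDH2 against shControl and -0.19 (SE 0.032, adjusted p = 1.30e-05) in shIMPDH2 against shIMPDH1. Across all tested genes, 54.5% had a smaller absolute change than NFKBIA in shIMPDH1 against shControl, so the change was of ordinary size for these libraries.

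The precursor subunits NFKB1 and NFKB2 followed the same order of groups as NFKBIA. NFKB1 encodes p105, the precursor of p50 of the canonical dimer, and lies on chromosome 4, positions 102501329 to 102617302, plus strand. It was at 78.2, 74.7 and 79.1 CPM in shControl, 83.0, 81.1 and 82.0 CPM in shIMPDH1, and 75.2, 74.0 and 75.5 CPM in shIMPDH2. The shIMPDH1 libraries stood above both other groups, which overlapped with each other. NFKB1 rose in shIMPDH1 against shControl by 0.09 on the log2 scale (SE 0.030, adjusted p = 0.0218), a call that was lost without shControl 2 (adjusted p = 0.189), shIMPDH1 1 (0.0773) or shIMPDH1 3 (0.0605), and without the filter on low counts (0.0743). It was lower in shIMPDH2 than in shIMPDH1 (log2 fold change -0.13, SE 0.030, adjusted p = 0.000795), and the difference from shControl was -0.04 (adjusted p = 0.260).

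NFKB2 encodes p100, the precursor of p52 in the non-canonical branch (chromosome 10, positions 102394110 to 102402529, plus strand). It was at 48.6, 45.3 and 46.0 CPM in shControl, 51.9, 50.2 and 51.2 CPM in shIMPDH1, and 44.4, 43.6 and 45.8 CPM in shIMPDH2. Here too shIMPDH1 stood above both groups without overlap. The log2 fold change was 0.13 (SE 0.035, adjusted p = 0.00327) against shControl, and shIMPDH2 was lower than shIMPDH1 by 0.20 on the log2 scale (SE 0.036, adjusted p = 5.01e-05). In shIMPDH2 against shControl it was -0.06 (SE 0.036, adjusted p = 0.166).

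RELB, which pairs with p52 in the non-canonical branch, took another order. It lies on chromosome 19, positions 45001430 to 45038198, plus strand, and was at 16.5, 16.5 and 17.5 CPM in shControl, 17.2, 16.3 and 17.9 CPM in shIMPDH1, and 18.0, 20.4 and 19.0 CPM in shIMPDH2. The shIMPDH2 libraries lay above the other 6, of which those of shControl and shIMPDH1 overlapped. The log2 fold change was 0.18 (SE 0.054, adjusted p = 0.00753) in shIMPDH2 against shControl and 0.16 (SE 0.054, adjusted p = 0.0196) in shIMPDH2 against shIMPDH1. Both calls rested on shIMPDH2 2, without which the adjusted p was 0.0712 and 0.141. The second was also lost without shIMPDH1 2 (0.115). RELA, the activating subunit of the canonical dimer, was at 51.0 CPM (SD 1.79), 50.7 CPM (SD 1.72) and 53.1 CPM (SD 1.90) in shControl, shIMPDH1 and shIMPDH2, with libraries that overlapped in each comparison and adjusted p of 0.902, 0.222 and 0.159. REL, the remaining subunit, was at 13.1 CPM (SD 0.650), 12.2 CPM (SD 0.792) and 13.7 CPM (SD 0.259) and was called between the knockdowns, higher in shIMPDH2 by 0.17 on the log2 scale (adjusted p = 0.0224); 43.3% of its exon bases are shared with another gene on the same strand.

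TNFAIP3 and BIRC3 are survival and feedback genes of the pathway. TNFAIP3 encodes A20, a ubiquitin-editing enzyme that shuts the signal off, and lies on chromosome 6, positions 137867188 to 137883312, plus strand. It was at 45.7, 43.5 and 44.4 CPM in shControl, 48.4, 45.9 and 48.2 CPM in shIMPDH1, and 41.9, 40.7 and 42.5 CPM in shIMPDH2. The 3 groups did not overlap: shIMPDH1 was highest and shIMPDH2 lowest. The difference between the knockdowns was -0.19 on the log2 scale (SE 0.036, adjusted p = 9.90e-05). The steps from the control were 0.09 (SE 0.036, adjusted p = 0.0340) in shIMPDH1 and -0.09 (SE 0.036, adjusted p = 0.0405) in shIMPDH2. The first was lost when any of 4 libraries was left out, with adjusted p from 0.0775 to 0.171 (shControl 2, shControl 3, shIMPDH1 1 and shIMPDH1 3), and the second when any of 5 was left out, with adjusted p from 0.0569 to 0.159 (each shControl library, shIMPDH2 1 and shIMPDH2 2). Under library totals, without the filter and under DESeq2, neither step was called, with adjusted p from 0.0734 to 0.105 in shIMPDH1 and from 0.0645 to 0.130 in shIMPDH2.

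BIRC3 encodes cIAP2, a ubiquitin ligase that protects from cell death downstream of TNF receptors (chromosome 11, positions 102317450 to 102339403, plus strand). It was at 12.2, 13.0 and 13.6 CPM in shControl, 15.8, 14.5 and 17.1 CPM in shIMPDH1, and 12.8, 12.0 and 11.6 CPM in shIMPDH2. The shIMPDH1 libraries lay above all others. BIRC3 rose in shIMPDH1 against shControl by 0.29 on the log2 scale (SE 0.063, adjusted p = 0.000442), the largest rise among the 10 genes in that comparison, and was lower in shIMPDH2 than in shIMPDH1 by 0.38 on the log2 scale (SE 0.064, adjusted p = 2.08e-05). In shIMPDH2 against shControl it was -0.09 (SE 0.065, adjusted p = 0.328). Its relative BIRC2, coding for cIAP1, was at 55.0, 54.0 and 55.3 CPM in the 3 groups and was called in none of the 3 comparisons (adjusted p = 0.594, 0.876 and 0.468).

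CXCL8, or interleukin-8, attracts neutrophils through CXCR1 and CXCR2, and it changed most among the 10 genes. It lies on chromosome 4, positions 73740506 to 73743716, plus strand. It was at 30.3, 30.7 and 32.8 CPM in shControl, 29.8, 27.3 and 29.5 CPM in shIMPDH1, and 66.9, 61.8 and 66.3 CPM in shIMPDH2. Every shIMPDH2 library lay far above the other 6, and the shIMPDH1 libraries lay just below those of shControl. CXCL8 was 2.08-fold higher in shIMPDH2 than in shControl (log2 fold change 1.06, SE 0.041, adjusted p = 2.37e-17) and 2.25-fold higher than in shIMPDH1 (1.17, SE 0.042, adjusted p = 2.47e-18). Of all tested genes, 97.3% changed less than CXCL8 in shIMPDH2 against shControl. The small difference of shIMPDH1 from shControl was -0.11 (SE 0.045, adjusted p = 0.0411) and was lost without shControl 2 (0.0561), shControl 3 (0.202) or shIMPDH1 2 (0.235), and under upper-quartile scaling (0.0785), DESeq2 (0.0737) and limma-voom (0.0565).

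CXCL1, another ligand of CXCR2, fell in shIMPDH1 and rose in shIMPDH2. It lies on chromosome 4, positions 73869393 to 73871242, plus strand, and was at 31.7, 29.9 and 31.6 CPM in shControl, 26.2, 26.2 and 26.0 CPM in shIMPDH1, and 35.1, 35.3 and 36.1 CPM in shIMPDH2. The 3 groups stood apart with no overlap. The log2 fold change was -0.25 (SE 0.040, adjusted p = 1.23e-05) in shIMPDH1 against shControl, 0.20 (SE 0.039, adjusted p = 0.000192) in shIMPDH2 against shControl and 0.44 (SE 0.040, adjusted p = 4.99e-10) in shIMPDH2 against shIMPDH1.

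CXCL2, a close relative of CXCL1 that also acts on neutrophils, was the least abundant chemokine of the 4 (chromosome 4, positions 74097035 to 74099293, minus strand). It was at 4.13, 4.93 and 4.73 CPM in shControl, 4.54, 4.04 and 4.84 CPM in shIMPDH1, and 5.91, 5.64 and 6.15 CPM in shIMPDH2. The shIMPDH2 libraries were above the other 6, which overlapped. CXCL2 was 1.28-fold higher in shIMPDH2 than in shControl (log2 fold change 0.36, SE 0.092, adjusted p = 0.00268) and 1.32-fold higher than in shIMPDH1 (0.40, SE 0.093, adjusted p = 0.000868), while shIMPDH1 differed from shControl by -0.04 (SE 0.096, adjusted p = 0.764). Of the 50-base stretches of the transcripts, 12.5% in CXCL2 and 4.81% in CXCL1 also occur in another gene of the family, so a part of their reads could be split between copies.

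CCL20 attracts CCR6-bearing lymphocytes and dendritic cells, and moved against the other 3 chemokines. It lies on chromosome 2, positions 227805739 to 227817564, plus strand. It was at 267, 273 and 285 CPM in shControl, 296, 292 and 307 CPM in shIMPDH1, and 217, 201 and 207 CPM in shIMPDH2. The 3 groups did not overlap, with shIMPDH1 highest and shIMPDH2 lowest. CCL20 was 1.09-fold higher in shIMPDH1 than in shControl (log2 fold change 0.12, SE 0.029, adjusted p = 0.00160), 1.32-fold lower in shIMPDH2 than in shControl (-0.40, SE 0.030, adjusted p = 1.94e-11) and 1.43-fold lower in shIMPDH2 than in shIMPDH1 (-0.52, SE 0.030, adjusted p = 6.08e-14).

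**Figure D2:**
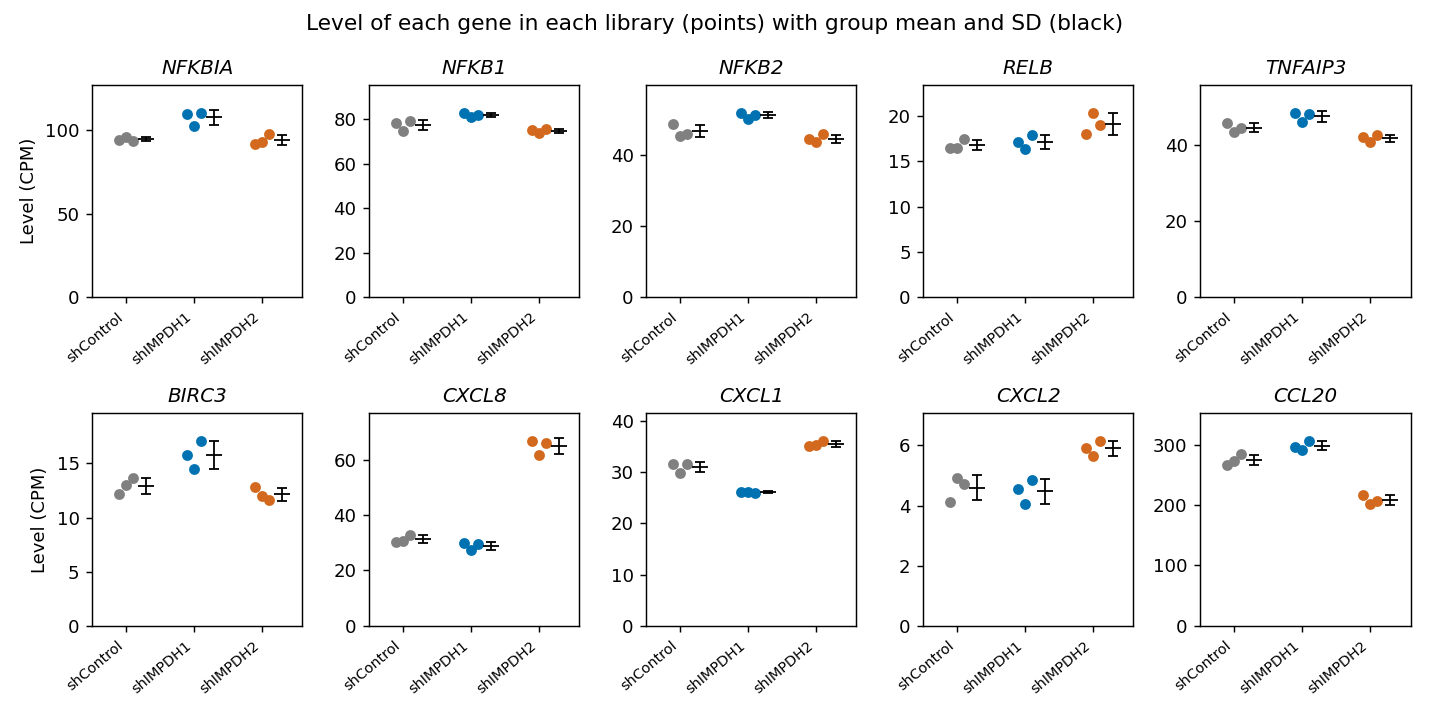
Level of each of the 10 genes in each library in CPM, with coloured points for the libraries of shControl, shIMPDH1 and shIMPDH2 and, in black, the mean and SD of each group. The shIMPDH2 libraries were highest for RELB, CXCL8, CXCL1 and CXCL2 and lowest for TNFAIP3 and CCL20, and the shIMPDH1 libraries were highest for NFKBIA, NFKB1, NFKB2, TNFAIP3, BIRC3 and CCL20.

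Ratios of 2 genes within a library do not depend on the scaling between libraries. Per kilobase, CCL20 exceeded CXCL8 by 12.6-, 12.7- and 12.4-fold in the shControl libraries, 14.2-, 15.2- and 14.8-fold in shIMPDH1, and 4.64-, 4.65- and 4.45-fold in shIMPDH2. The balance of these 2 chemokines therefore differed between all 3 groups with no overlap. The ratio of CXCL8 to CXCL2 was 4.51 (SD 0.363, n = 3) in shControl, 4.27 (SD 0.223) in shIMPDH1 and 7.26 (SD 0.181) in shIMPDH2, so these 2 genes, which lie at opposite ends of their cluster on chromosome 4, rose unequally in shIMPDH2. By contrast, the ratio of NFKB2 to NFKBIA overlapped across the 3 groups and stayed between 0.245 and 0.273 in all 9 libraries.

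Counted together, shIMPDH1 against shControl had 8 of the 10 members past the threshold, 6 of them higher and 2 lower, where 43.4% of all 17396 tested genes were called (20.6% higher and 22.8% lower). In shIMPDH2 against shControl 6 were called, 4 higher and 2 lower, where 38.4% of all genes were called (18.6% higher and 19.9% lower). In shIMPDH2 against shIMPDH1 all 10 were called, 4 higher and 6 lower, where 44.0% of all genes were called (21.7% higher and 22.2% lower). The libraries of the groups did not overlap for 8, 6 and 10 members, against 51.7%, 46.7% and 51.5% of all genes. Among the genes whose mean log2 CPM was 2 or more, to which all 10 members belong, the shares called were 55.8%, 49.6% and 57.3%, and the shares without overlap were 63.0%, 56.3% and 63.5%. The comparisons share libraries with each other, and the counts are not independent.

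The members' changes were mostly small. Their median log2 fold change was 0.09 in shIMPDH1 against shControl, -0.03 in shIMPDH2 against shControl and -0.16 in shIMPDH2 against shIMPDH1, where the median of all genes was 0.00, 0.01 and -0.01. Without regard to sign, the members' median change was 0.12, 0.14 and 0.29 on the log2 scale, and that of all genes 0.16, 0.14 and 0.17. At more than 1.5-fold beside the adjusted p, 0, 1 and 1 members were called, the 1 being CXCL8, against 7.93%, 6.74% and 8.03% of all genes. Those called higher were 3.09%, 2.41% and 4.14% of all genes. Leaving out any library in turn gave 5 to 8, 4 to 6 and 9 to 10 members called. Without shControl 1 the counts were 8, 5 and 10, and without shIMPDH2 1 they were also 8, 5 and 10.

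**Figure D3:**
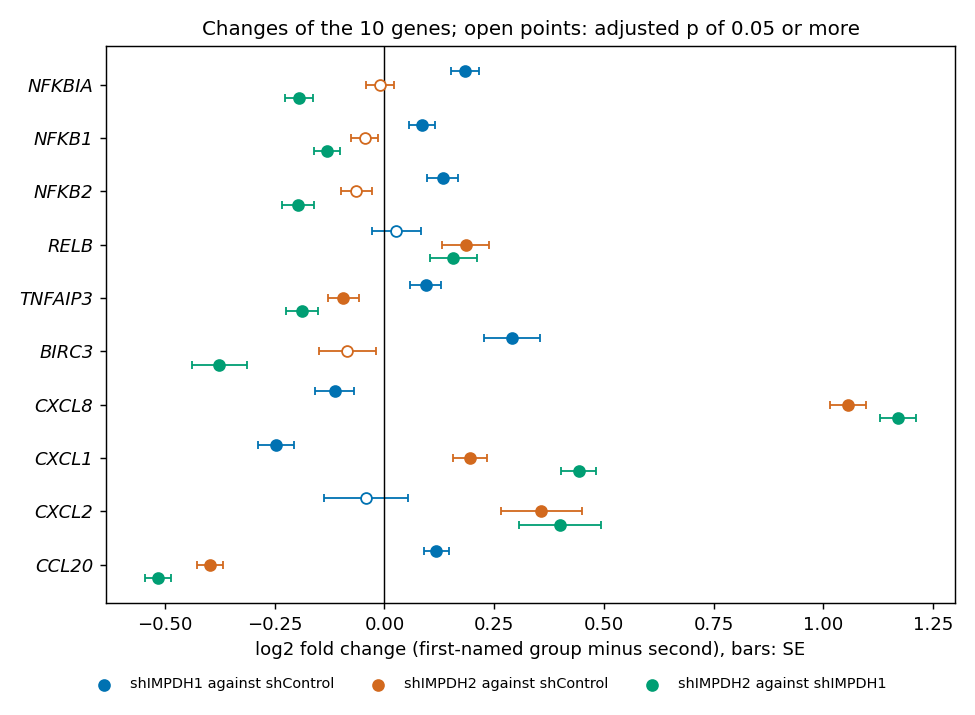
Log2 fold change of each of the 10 genes in the 3 comparisons, with bars for 1 SE and filled points for an adjusted p under 0.05. CXCL8 stands at 1.06 and 1.17 in the comparisons that include shIMPDH2, and the other 9 genes lie between -0.52 and 0.44.

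CXCL8, CXCL1 and CXCL2 belong to a cluster of neutrophil chemokines on chromosome 4, and 3 neighbours between them on the map were read in the same fit. They were picked for their position among the listed genes with a CXCL symbol, and other genes of the stretch were not read. CXCL6 begins 96.0 kilobases after the start of CXCL8 and was at 21.1, 20.8 and 20.3 CPM in shControl, 15.3, 17.2 and 17.8 CPM in shIMPDH1, and 25.5, 23.6 and 26.0 CPM in shIMPDH2. CXCL5 was at 202, 214 and 209.9 CPM in shControl, 187, 185 and 189 CPM in shIMPDH1, and 232, 229 and 236 CPM in shIMPDH2. CXCL3 was at 4.13, 4.53 and 4.53 CPM in shControl, 3.46, 3.55 and 3.77 CPM in shIMPDH1, and 5.84, 4.54 and 5.10 CPM in shIMPDH2. All 3 took the order of CXCL1, with shIMPDH1 lowest, shControl between and shIMPDH2 highest, and no overlap between groups. For CXCL3 the gap between shControl and shIMPDH2 was only that from 4.53 to 4.54 CPM. Some 50-base stretches of CXCL1 and CXCL2 also occur in CXCL3, so its reads may not be separate from theirs.

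Against shControl, the log2 fold changes in shIMPDH1 were -0.30 (adjusted p = 5.59e-05) for CXCL6, -0.15 (adjusted p = 2.02e-05) for CXCL5 and -0.29 (adjusted p = 0.0236) for CXCL3. In shIMPDH2 they were 0.27 (adjusted p = 0.00013), 0.15 (adjusted p = 2.23e-05) and, short of the threshold, 0.23 (adjusted p = 0.0594). Between the knockdowns, CXCL6, CXCL5 and CXCL3 were higher in shIMPDH2 by 0.58, 0.31 and 0.53. All 6 CXCL genes read from the stretch were thus higher in shIMPDH2 than in shIMPDH1, by 0.31 to 1.17. CXCL10, farther along the chromosome and best known as an interferon target, was at 12.5, 14.2 and 15.5 CPM and rose in both knockdowns against shControl, by 0.18 (adjusted p = 0.0114) in shIMPDH1 and 0.31 (adjusted p = 8.46e-05) in shIMPDH2.

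**Figure D4:**
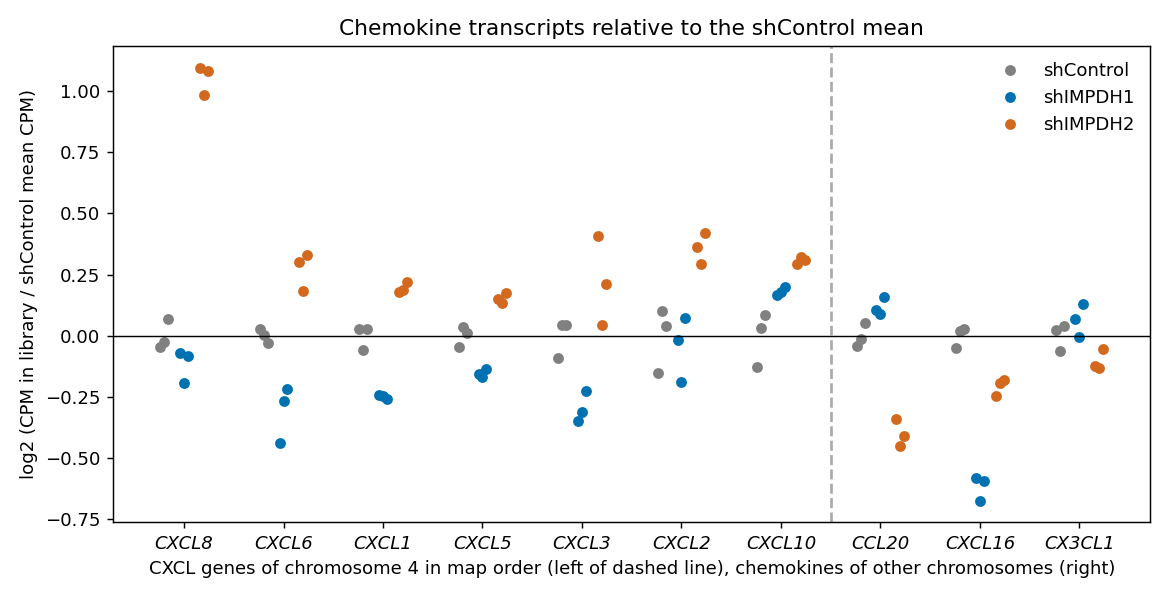
Log2 ratio of the CPM in each library to the shControl mean, with 1 point per library, for the tested CXCL genes of chromosome 4 in map order and, right of the dashed line, CCL20, CXCL16 and CX3CL1. CXCL8, CXCL6, CXCL1, CXCL5, CXCL3 and CXCL2 were all higher in shIMPDH2 than in shIMPDH1, and CCL20 was lower.

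Over the whole list of 37 chemokines, 16 were tested, and the list holds the 4 member chemokines. In shIMPDH1 against shControl 3 were higher and 7 lower, in shIMPDH2 against shControl 7 were higher and 3 lower, and in shIMPDH2 against shIMPDH1 9 were higher and 3 lower. The shares called, 62.5%, 62.5% and 75.0%, compare with 43.4%, 38.4% and 44.0% of all genes, and the medians were -0.13, 0.12 and 0.35 on the log2 scale. Over the alternatives other than the 1.5-fold rule, the lower chemokines in shIMPDH1 numbered 4 to 8. CXCL16, a membrane-bound ligand of CXCR6, was at 70.6 CPM (SD 2.02), 46.1 CPM (SD 1.58) and 61.2 CPM (SD 1.46) and fell in both knockdowns, by 0.62 and 0.21 on the log2 scale. CXCL12, the ligand of CXCR4, was at 1.20 CPM (SD 0.167) in shControl and rose to 2.44 CPM (SD 0.196) in shIMPDH1 (log2 fold change 1.01, adjusted p = 5.12e-06). CCL2, a monocyte chemokine, was at 0 counts in all 9 libraries.

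Receptors for these chemokines were scarce in the cells. CXCR1 had 0 counts in every library and CXCR2 at most 1 count. CCR6, the receptor of CCL20, was at 0.579, 0.381 and 0.507 CPM and was called in no comparison (adjusted p = 0.136, 0.684 and 0.324). Its level is uncertain, because 69.2% of its exon bases are shared with another gene on the same strand. Of 21 chemokine receptors, 6 were tested. CCR1 fell in shIMPDH1 against shControl, from 3.91 CPM (SD 0.253) to 1.98 CPM (SD 0.293). ACKR3, a scavenging receptor of CXCL12, fell in both knockdowns, from 2.01 CPM (SD 0.319) to 1.21 CPM (SD 0.406) and 0.784 CPM (SD 0.0866).

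Upstream of NF-kB, the ligands TNF and IL1B were near the limit of detection, with at most 10 and 5 counts in a library. So was IL6, listed among the target genes, with at most 9 counts. Of the 13 ligands listed, 7 were tested. IL18, a cytokine of the interleukin-1 family, was at 16.7, 15.9 and 16.5 CPM in shControl, 9.57, 9.46 and 9.12 CPM in shIMPDH1, and 23.2, 20.2 and 19.9 CPM in shIMPDH2, and was 2.25-fold higher in shIMPDH2 than in shIMPDH1 (log2 fold change 1.17, adjusted p = 7.07e-15). LTB, or lymphotoxin beta, fell in both knockdowns, from 2.27 CPM (SD 0.281) to 1.06 CPM (SD 0.167) in shIMPDH1 and 0.815 CPM (SD 0.0483) in shIMPDH2.

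Among the 17 receptors upstream of NF-kB, 15 were tested. In shIMPDH1 against shControl 0 were higher and 6 lower, in shIMPDH2 against shControl 4 were higher and 3 lower, and in shIMPDH2 against shIMPDH1 6 were higher and 2 lower. The shares called were 40%, 46.7% and 53.3% (43.4%, 38.4% and 44.0% of all genes), and the medians were -0.06, 0.12 and 0.17. Over the same alternatives, 2 to 4 were lower in shIMPDH2 against shControl and 0 to 2 between the knockdowns. TNFRSF12A, the receptor of TWEAK, was at 66.6, 69.4 and 66.9 CPM in shControl, 44.2, 42.1 and 43.4 CPM in shIMPDH1, and 84.4, 86.4 and 83.2 CPM in shIMPDH2. IL1R1, the signalling receptor of interleukin-1, was at 42.1, 41.7 and 43.6 CPM, then 33.9, 33.0 and 33.0 CPM, then 51.0, 50.5 and 50.7 CPM in the same order of groups. Both fell in shIMPDH1 and rose in shIMPDH2 against shControl, and the knockdowns differed by a log2 fold change of 0.97 (adjusted p = 6.22e-19) for TNFRSF12A and 0.61 (adjusted p = 6.21e-14) for IL1R1.

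Of the 14 adaptors and ubiquitin ligases, all tested and BIRC3 among them, 2 were higher and 4 lower in shIMPDH1 against shControl, 5 higher and 0 lower in shIMPDH2 against shControl, and 5 higher and 1 lower between the knockdowns, with medians of -0.05, 0.10 and 0.10. The shares called, 42.9%, 35.7% and 42.9%, were near those of all genes (43.4%, 38.4% and 44.0%). MYD88, the adaptor of the interleukin-1 and Toll-like receptors, was at 37.2, 36.8 and 36.4 CPM in shControl, 22.7, 21.5 and 23.2 CPM in shIMPDH1, and 43.0, 40.9 and 41.6 CPM in shIMPDH2. Its groups did not overlap, and it was 1.86-fold higher in shIMPDH2 than in shIMPDH1 (log2 fold change 0.90, adjusted p = 3.34e-16).

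The list of IKK and upstream kinases has 14 genes, each tested. It also holds IKBKG, TAB1, TAB2 and TAB3, which code for binding partners of the kinases and not for kinases. In shIMPDH1 against shControl 1 was higher and 2 lower, in shIMPDH2 against shControl 5 were higher and 2 lower, and between the knockdowns 4 were higher and 3 lower. The shares called were 21.4%, 50% and 50% (43.4%, 38.4% and 44.0% of all genes), and the medians were 0.01, 0.02 and 0.03. MAP3K7, coding for the kinase TAK1, was at 103 CPM (SD 1.42) in shControl, 83.7 CPM (SD 1.68) in shIMPDH1 and 93.8 CPM (SD 1.00) in shIMPDH2 and fell in both knockdowns. IKBKE, an IKK-related kinase, was at 26.3 CPM (SD 0.0534), 27.1 CPM (SD 1.23) and 17.9 CPM (SD 0.494) and fell in shIMPDH2 against shControl by 0.56 on the log2 scale (adjusted p = 1.28e-10).

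The 6 IkB proteins hold NFKBIA, and 3 of them were higher and 1 lower in shIMPDH1 against shControl. In shIMPDH2 against shControl 0 were higher and 1 lower, and between the knockdowns 0 were higher and 2 lower. The shares called were 66.7%, 16.7% and 33.3% (43.4%, 38.4% and 44.0% of all genes), and the medians were 0.10, -0.03 and -0.15. Over the alternatives, 1 to 3 were higher and 0 to 1 lower in shIMPDH1, and 2 to 4 were lower between the knockdowns. NFKBIB, coding for IkB-beta, rose in shIMPDH1 against shControl by 0.15 (adjusted p = 0.00727), and NFKBIE, coding for IkB-epsilon, fell by 0.16 on the log2 scale (adjusted p = 0.00829). NFKBIZ, an atypical nuclear IkB, was at 118 CPM (SD 1.31), 121 CPM (SD 1.96) and 107 CPM (SD 0.879), and it fell in shIMPDH2 against shControl by 0.14 on the log2 scale (adjusted p = 9.45e-05).

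Of the 9 negative feedback proteins, which include TNFAIP3, 2 were higher and 4 lower in shIMPDH1 against shControl, 2 higher and 5 lower in shIMPDH2 against shControl, and 4 higher and 3 lower between the knockdowns, with medians of -0.02, -0.09 and -0.05. The shares called were 66.7%, 77.8% and 77.8% (43.4%, 38.4% and 44.0% of all genes). Over the alternatives, 1 to 3 were higher in shIMPDH1 and 3 to 5 lower in shIMPDH2 against shControl. CYLD, a deubiquitinase that restrains the pathway, was at 20.0 CPM (SD 0.656) in shControl and fell to 14.9 CPM (SD 0.611) in shIMPDH1 and 16.4 CPM (SD 0.315) in shIMPDH2. ZC3H12A, the ribonuclease regnase-1 that degrades cytokine messages, was at 47.9 CPM (SD 2.02) and fell to 41.0 CPM (SD 0.917) and 39.7 CPM (SD 1.37). RNF11, a partner of A20, rose in shIMPDH2, from 55.5 CPM (SD 1.00) to 73.6 CPM (SD 1.20).

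A list of 38 other NF-kB target genes, of which 30 were tested, also holds chemokines of the cluster such as CXCL5. In shIMPDH1 against shControl 4 were higher and 16 lower, in shIMPDH2 against shControl 10 were higher and 11 lower, and between the knockdowns 13 were higher and 8 lower. The shares called were 66.7%, 70% and 70% (43.4%, 38.4% and 44.0% of all genes), the medians were -0.15, 0.02 and 0.09, and over the alternatives 11 to 16 were lower in shIMPDH1. Called targets went in both directions in every comparison. SOD2, the mitochondrial superoxide dismutase, was at 459 CPM (SD 8.52), 488 CPM (SD 8.26) and 422 CPM (SD 6.99), the order of CCL20. ICAM1, an adhesion molecule for leukocytes, was at 170 CPM (SD 3.50), 131 CPM (SD 1.08) and 209.5 CPM (SD 6.29), the order of CXCL1. SOD2 was chosen for this contrast after its values were seen. The symbol SOD2 had 2 matches in GENCODE, so no exon length or overlap with other genes was read for it.

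ICAM1 differed between the knockdowns by a log2 fold change of 0.68 (adjusted p = 2.70e-17). IER3, an early response gene, fell in shIMPDH1 from 28.0 CPM (SD 0.336) to 15.2 CPM (SD 0.643) and was at 31.7 CPM (SD 0.752) in shIMPDH2. For both, 23.6% and 26.5% of the exon bases lie opposite an exon of another gene, and the sources used here do not give the strand setting of the counting. VCAM1, an adhesion molecule of activated endothelium, rose in both knockdowns, from 7.67 CPM (SD 0.365) to 13.5 CPM (SD 1.62) and 10.7 CPM (SD 0.302). PTX3, a secreted pattern-recognition protein, was at 3.53, 3.04 and 3.46 CPM in shControl, 4.11, 3.14 and 3.09 CPM in shIMPDH1, and 0.628, 0.415 and 0.801 CPM in shIMPDH2. It was 5.42-fold lower in shIMPDH2 than in shControl (log2 fold change -2.44, SE 0.182, adjusted p = 2.19e-11), the reverse of CXCL8 in the same libraries.

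**Figure D5:**
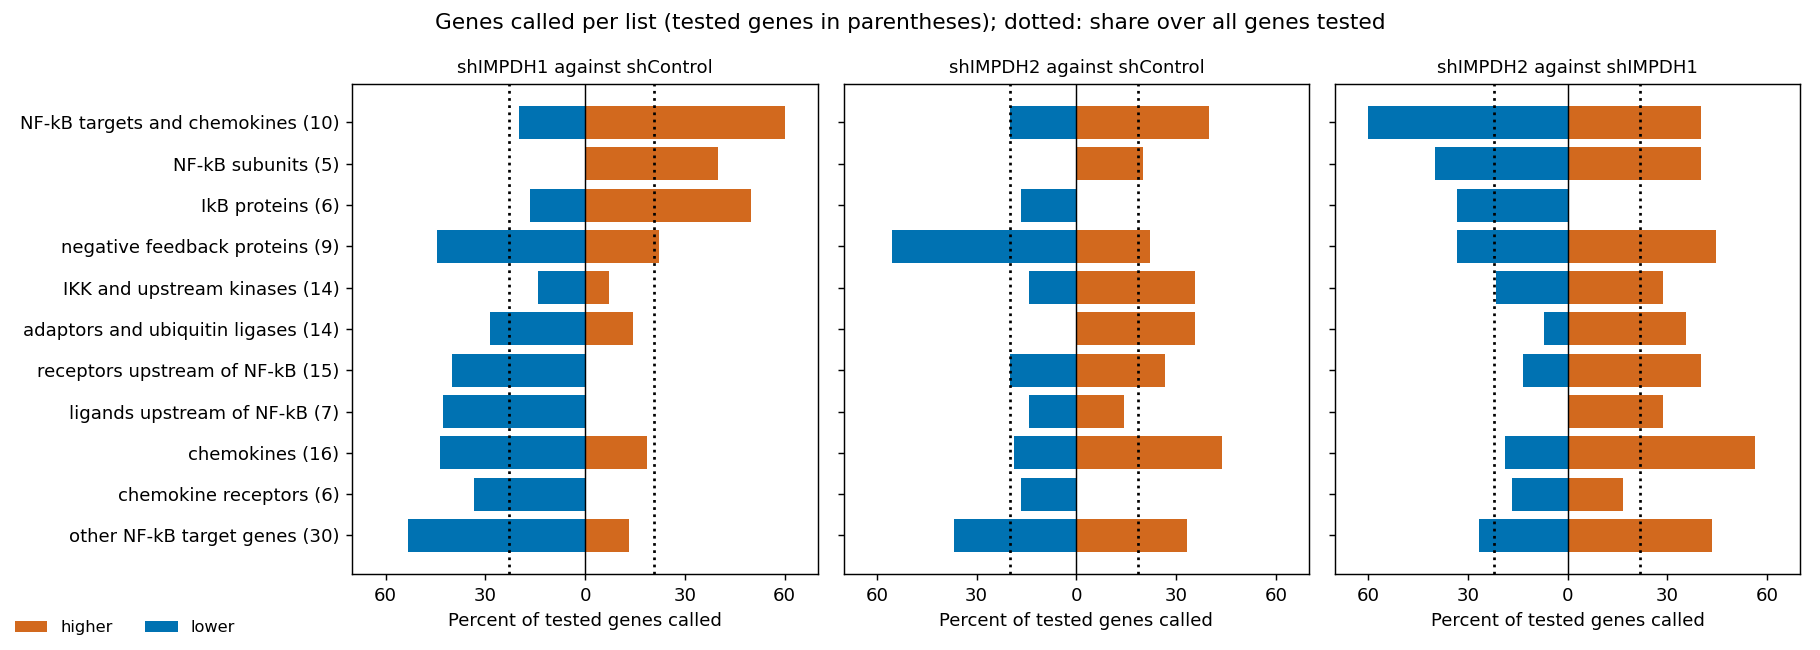
Percent of the tested genes of each list that were called higher (to the right) and lower (to the left) in the 3 comparisons, with dotted lines at the share over all tested genes. In shIMPDH1 against shControl, 16 of the 30 tested other targets and 7 of the 16 tested chemokines were lower, and 4 and 3 were higher. In shIMPDH2 against shIMPDH1, 13 and 9 were higher, and 8 and 3 were lower. Of all tested genes, 22.8% were lower in shIMPDH1 against shControl and 21.7% higher in shIMPDH2 against shIMPDH1. The lists overlap, with CXCL5 in both.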

How the data were processed

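Per the submitters' processing notes, Trim Galore, cutadapt, STAR and featureCounts were used with build hg38. Versions, annotation and strand setting are not given there. The authors deposited 1 table of raw counts with gene symbols. Libraries were made with a strand-specific poly(A) kit, per the labels' protocols.

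In R 4.3.3 the counts were analysed with edgeR 4.0.16: the default filter by group kept 17396 of 58684 genes, scaling was TMM, and 1 quasi-likelihood model of all 9 libraries had the group as its single term. Adjusted p-values are from this edgeR test with Benjamini-Hochberg adjustment over the 17396 genes; a gene was called, or said to rise or fall, under 0.05. The SE is the log2 fold change divided by the root of F. The script was tested on simulated data. Libraries of 1 group differed by a mean chi-square of 1.80 to 6.99 a gene, so none was a duplicate; shControl 1 and shIMPDH2 1 stood apart most.

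All members are named; from each other list up to 5 genes of smallest p per comparison could be named if their mean log2 CPM was 0 or more. Not every gene the rule takes is reported here. Genes named for position, for role or as absent lie outside that rule. Members and lists were chosen with earlier results of these data known. Exons are from GENCODE 29 and promoters from RefSeq GRCh38.p14. Alternatives were RLE, upper-quartile and library-total scaling, DESeq2 1.42.0, limma-voom 3.58.1, no filter, a mean CPM of at least 1, only the 6 libraries compared, a replicate block, leaving out each library and, chosen after seeing the data, a 1.5-fold rule.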

Additional observations from a re-analysis of the deposited data

How the results depend on the processing

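Of the members' 30 log2 fold changes under the alternatives other than the 1.5-fold rule, 506 values kept direction and call, 28 lost the call and 6 changed sign. The sign changes were all in values not called: with 1 library left out at a time, in shIMPDH1 against shControl CXCL2 ranged from -0.11 to 0.026 (positive without shControl 2 or shIMPDH1 2) and RELB from -0.0069 to 0.061 (negative without shIMPDH1 3), and in shIMPDH2 against shControl NFKBIA ranged from -0.036 to 0.010 (positive without shControl 2 or shIMPDH2 1). NFKBIA there was 0.0097 under library totals. Under these alternatives the lost calls were of TNFAIP3, NFKB1 and CXCL8 in shIMPDH1 against shControl, of TNFAIP3 and RELB in shIMPDH2 against shControl and of RELB between the knockdowns. The count of members lower in shIMPDH1 against shControl fell from 2 to 1 under upper-quartile scaling, DESeq2 and limma-voom, and in shIMPDH2 against shControl from 2 to 1 under library totals, without the filter and under DESeq2; the cause was not tested. Leaving out each library gave 1 to 2 for both counts and 5 to 8 members called in shIMPDH1 against shControl. With the 1.5-fold rule, which removes small changes by construction and ends every member call but those of CXCL8 in the comparisons with shIMPDH2, 1380, 1172 and 1397 genes and 0, 1 and 1 members were called, of which 0, 1 and 1 were higher and 0 lower.

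With the replicate number as a replicate block, 7735, 6854 and 7852 genes and 8, 6 and 10 members were called. Deviations of libraries with the same number correlated at -0.086 to 0.089, and those with other numbers at -0.084 to 0.107, so no shared effect of the number was seen. Whether the numbers mark a shared culture or batch cannot be told from these correlations. All members passed the filter on low counts, and the effect of depth on their calls was not tested. CXCL2 had the fewest counts among them, 198 to 320 a library. TNF, IL6 and IL1B were too low to test.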

Other observations

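Genes whose level followed CXCL8 or NFKBIA most closely were looked up among 11074 genes whose mean log2 CPM was 2 or more. The measure was Pearson's r of log2 CPM over the 9 libraries. These libraries fall into 3 groups and share depth and scaling, so r is a description of likeness only. For CXCL8, genes among the nearest were TP53BP2 (r = 0.996), MGAM (0.994), TNFRSF11B (0.994) and PHLDA1 (0.993). TNFRSF11B, the decoy receptor osteoprotegerin, was at 25.8 CPM (SD 0.0438, n = 3) in shControl, 25.4 CPM (SD 0.710) in shIMPDH1 and 49.3 CPM (SD 1.37) in shIMPDH2. MGAM, an intestinal disaccharidase, was at 7.13 CPM (SD 0.932), 5.95 CPM (SD 0.331) and 19.7 CPM (SD 0.922).

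For NFKBIA the nearest were PRMT6 (r = 0.986), EXOSC7 (0.971), SCML2 (0.966), CDO1 (0.960) and UQCRC1 (0.958), and no other member was among them. PRMT6, an arginine methyltransferase, was at 5.03 CPM (SD 0.293) in shControl, 7.96 CPM (SD 0.721) in shIMPDH1 and 4.72 CPM (SD 0.487) in shIMPDH2. EXOSC7, a subunit of the RNA exosome, was at 28.5 CPM (SD 0.766), 35.0 CPM (SD 1.32) and 28.0 CPM (SD 1.27).

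LYZ, which is also an immune marker, was at 915 CPM in shControl, 1324 CPM in shIMPDH1 and 882 CPM in shIMPDH2. Of its exon bases, 34.0% lie opposite an exon of another gene.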
